A study of Mus musculus with 6 samples.

Results

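Naive T cells stay small and out of the cell cycle under a set of transcription factors that is switched down when the antigen receptor is engaged. FOXO1 and FOXO3 are held out of the nucleus by PI3K and AKT signalling and, when nuclear, drive genes of the resting state such as Klf2 and Il7r. KLF2 in turn drives S1pr1, the receptor by which T cells leave lymph nodes, while FOXP1 restrains naive T cells and can compete with FOXO1 at the Il7r gene. TCF7 (TCF-1) and LEF1 are paired HMG-box factors of T cell identity, and Ly6c1 encodes a lipid-anchored surface protein of the LY6 family that marks subsets of CD4 T cells.

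The genes described here are these 9 naive and quiescence factors: the regulators Klf2, Foxo1, Foxo3, Foxp1, Tcf7 and Lef1, and the surface proteins S1pr1, Il7r and Ly6c1. They were chosen by symbol, and each of the 9 had 1 locus of its own among the 23203 loci of the deposited table. Mouse naive CD4 T cells were cultured for 48 h on plate-bound anti-CD3e (10 µg/ml) with anti-CD28 (1 µg/ml). The Th17 cytokines added were TGFb1 at 2.5 ng/ml, IL-23 at 10 ng/ml and IL-6 at 20 ng/ml. One group received DMSO as vehicle and the other 250 µM 2-deoxyglucose (2DG), a glucose analogue that inhibits glycolysis, with 3 libraries each. The comparison asks how the transcriptome of Th17 cells differs with 2DG, and glycolysis itself was not measured here. All 6 cultures were therefore activated, no library of resting naive cells was analysed here, and the labels give no strain, sex or age. Both groups carry the title numbers 17, 42 and 43 (replicates 1, 2 and 3), and the labels do not explain these numbers or say whether the libraries came from separate animals. The p-values therefore cover only library-to-library spread, part or all of which may be technical.

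Values are FPKM, by name fragments per kilobase of transcript scaled to library size. The scaling that was applied is not given in the sources used here, and depth is unknown because counts were not used here. Across the tested loci without small RNA genes, the correlation of log2 values was 0.984 to 0.991 within groups and 0.971 to 0.983 between them. The replicate 1 libraries stood apart in Rn45s, the ribosomal RNA precursor, which they held at 12874 FPKM (vehicle) and 7186 FPKM (2DG) and which was listed at 0 in the other 4 libraries. The T cell markers Cd3e, Cd3d, Cd3g, Cd4, Cd28 and Thy1 were present, summing to 644 to 768 FPKM in vehicle and 637 to 795 FPKM in 2DG libraries. The 6 Th17 markers summed to 1730 to 2008 FPKM in vehicle and 2371 to 3090 FPKM in 2DG libraries, and 3 of them (Il17a, Rora and Ccr6) rose. Markers of B cells summed to at most 3.71 FPKM and those of myeloid cells to at most 2.74 FPKM in any library, and the 3 CD8 T cell markers to at most 5.51 FPKM, nearly all Cd8b1. The 4 NK cell markers summed to 13.1 to 35.3 FPKM in vehicle and 8.60 to 17.8 FPKM in 2DG libraries; nearly all of this was Klrd1, and the defining marker Klrb1c was listed at 0. The 4 fibroblast and endothelial markers summed to 4.36 to 5.90 FPKM, nearly all Pecam1. The part of these markers, or of the higher Th17 markers, in the results below was not tested.

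With 2DG, 1 of the 9 genes passed the test: Ly6c1 fell, and the other 8 did not pass (limma on log2(FPKM + 1), Benjamini-Hochberg adjusted p under 0.05 over the 10228 loci averaging 1 FPKM or more). Over all loci tested 2.72% passed in either direction, 1.53% higher and 1.19% lower. In 4 of the 9 genes the vehicle and 2DG libraries did not overlap, with Foxp1 higher and Lef1, Il7r and Ly6c1 lower with 2DG, against 23.7% of all loci tested. The median log2 fold change of the 9 genes was 0.03, beside -0.01 over all loci. The factors Foxo1, Foxo3 and Tcf7 stayed within narrow ranges across the 6 libraries, and Klf2 varied more within each group than between the groups.

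**Figure D1:**
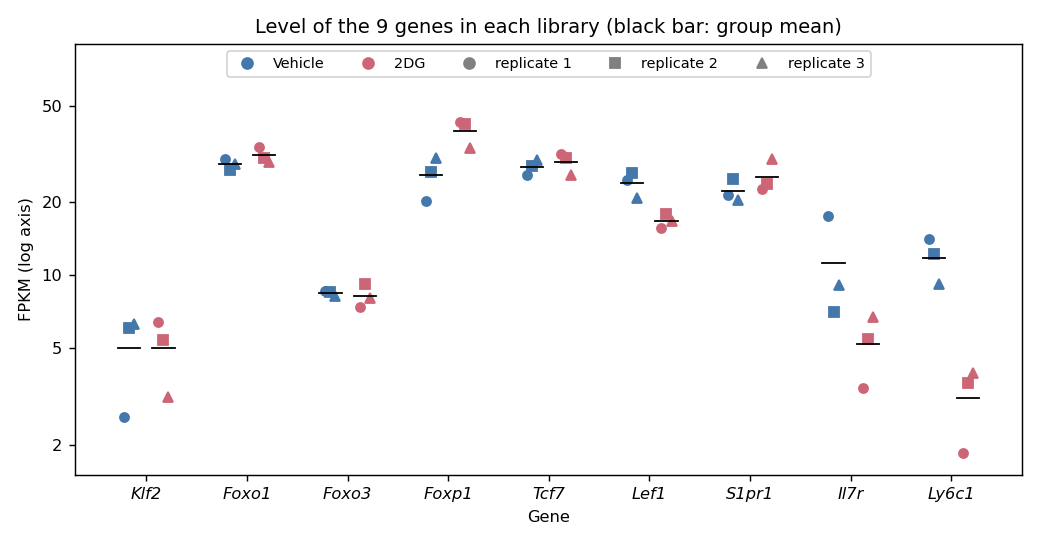
FPKM (log axis) of the 9 genes in each library, vehicle in blue and 2DG in red, with the replicate number as the symbol and the group mean as a bar. The groups are separate for Foxp1, Lef1, Il7r and Ly6c1, with Il7r closest to overlap (7.07 against 6.70 FPKM), and the low vehicle value of Klf2 is that of replicate 1.

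By mean level with vehicle, regulators stood at both ends of the order of the 9 genes, with Foxo1 highest and Klf2 lowest. With vehicle the mean order was Foxo1, Tcf7, Foxp1, Lef1 and S1pr1, between 28.8 and 22.3 FPKM, and neighbours in that order differed by less than the SD of at least one of them. Ly6c1 (11.8 FPKM), Il7r (11.3 FPKM) and Foxo3 (8.43 FPKM) followed, with overlapping libraries between neighbours, and Klf2 was at the bottom of the order in each vehicle library. With 2DG, Foxp1 was the highest of the 9 genes in each of the 3 libraries, although its lowest library (33.4 FPKM) lay just under the highest of Foxo1 (33.8 FPKM). Lef1 lay below S1pr1 without overlap with 2DG, whereas these 2 genes overlapped with vehicle. Foxp1 stood at the 73.0th percentile of mean level among loci tested and Klf2 at the 22.5th.

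The FOXO factors showed no difference past the test. Foxo1 (chromosome 3, 52268336 to 52353221, plus strand, GRCm38) was at 30.3, 27.1 and 28.9 FPKM in vehicle replicates 1 to 3 and at 33.8, 30.5 and 29.2 FPKM in 2DG replicates 1 to 3. The groups overlapped, and the fitted fold on the FPKM + 1 scale was 1.08, with a 95% interval of 0.940 to 1.24 (limma adjusted p = 0.55). Foxo3 (chromosome 10, 42181841 to 42276755, minus strand) read 8.59, 8.51 and 8.19 FPKM in vehicle replicates 1 to 3, against 7.36, 9.22 and 8.09 FPKM in the same order with 2DG. Its vehicle libraries lay inside the range of the 2DG libraries, and the interval of its fold was 0.827 to 1.15 (limma adjusted p = 0.89). Per length, Foxo3 was at 0.294 ± 0.018 of the level of Foxo1 with vehicle and 0.266 ± 0.043 with 2DG (SD, n = 3 each), which overlapped (exact two-sided permutation p = 0.4). Changes in the location or phosphorylation of FOXO proteins, by which they are mainly controlled, are not read by RNA levels.

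Foxp1 (chromosome 6, 98925338 to 99522721, minus strand) was at 20.3, 26.7 and 30.5 FPKM in the vehicle libraries and at 42.8, 42.1 and 33.4 FPKM in the 2DG libraries. Every 2DG library was above every vehicle library, but vehicle replicate 3 and 2DG replicate 3 lay close together. The means were 25.8 ± 5.14 and 39.4 ± 5.24 FPKM (SD, n = 3 each), a ratio of 1.53. The log2 fold change of 0.60 ± 0.16 (SE) did not pass (limma adjusted p = 0.11). Without vehicle replicate 1 the difference was 0.44, and with replicates 2 and 3 alone it was 0.38. Relative to Foxo1, Foxp1 was at 0.670, 0.988 and 1.05 in the vehicle libraries and 1.27, 1.38 and 1.14 in the 2DG libraries. The ratio was higher in each 2DG library than in any vehicle library (exact two-sided permutation p = 0.1, adjusted p = 0.13 over 4 ratios). It contains the Foxp1 values above and is not a separate result. The annotated Foxp1 gene has 31 transcripts and overlaps 4 other genes on its own strand, among them Gm20696, whose reads cannot be told apart from those of Foxp1 where exons coincide.

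Neither gene of the HMG-box pair passed the test. Tcf7 (chromosome 11, 52252371 to 52283014, minus strand) gave 25.8, 28.2 and 29.8 FPKM in the vehicle libraries, against 31.7, 30.6 and 25.8 FPKM in the 2DG libraries. The groups overlapped over nearly their whole range, and the interval of the fold was 0.886 to 1.24 (limma adjusted p = 0.78). Lef1 (chromosome 3, 131110471 to 131224356, plus strand) gave 24.8, 26.4 and 20.9 FPKM in the vehicle libraries, against 15.7, 17.8 and 16.7 FPKM in the 2DG libraries. All 3 vehicle libraries were above all 3 2DG libraries, with means of 24.0 ± 2.85 and 16.7 ± 1.05 FPKM (SD, n = 3 each). The log2 fold change of -0.49 ± 0.11 (SE) missed the threshold (limma adjusted p = 0.061). It passed when small RNA genes were left out of the fit (adjusted p = 0.032; 2.46% of loci were called lower there) and with robust eBayes (adjusted p = 0.037; 1.95% were called lower). With replicates 2 and 3 alone the difference was -0.42 (limma adjusted p = 0.36). The ratio of Lef1 to Tcf7 was 0.962, 0.936 and 0.699 in the vehicle libraries and 0.495, 0.582 and 0.645 in the 2DG libraries. These ratios did not overlap, and their exact permutation p of 0.1 is the smallest that 3 against 3 libraries allow (adjusted p = 0.13 over the 4 ratios computed). Tcf7, Lef1 and also Foxo1 each overlap an annotated gene on the opposite strand. The use of strand in the authors' quantification is not given in the sources used here. Each also overlaps a gene on its own strand (Gm26551 for Tcf7, Gm42449 for Lef1 and Gm38034 for Foxo1).

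Klf2 (chromosome 8, 72319033 to 72321656, plus strand), a short gene and a direct FOXO target, was the lowest of the regulators. Vehicle libraries held 2.61, 6.06 and 6.29 FPKM of it, and 2DG libraries 6.41, 5.42 and 3.14 FPKM. One library of each group was low (vehicle replicate 1 and 2DG replicate 3), and the group means were 4.99 ± 2.06 and 4.99 ± 1.68 FPKM (SD, n = 3 each). The log2 difference was 0.03 with a 95% interval of -0.73 to 0.79 (limma adjusted p = 0.98), which on the fold scale runs from 0.601 to 1.73. Leaving out the low vehicle library gave -0.30, leaving out the low 2DG library gave 0.27, and neither passed.

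The KLF2 target S1pr1 (chromosome 3, 115710433 to 115715072, minus strand) did not separate by group. Vehicle replicates 1 to 3 read 21.4, 25.0 and 20.4 FPKM, and 2DG replicates 1 to 3 read 22.6, 23.7 and 30.2 FPKM. The 2DG library with the highest S1pr1 level (replicate 3) was the one with the lowest Klf2 level. The interval of the fold for S1pr1 was 0.918 to 1.40 (limma adjusted p = 0.53). Among 14 tested genes of the S1P receptor system only Cd69, whose product pulls S1PR1 off the cell surface, passed, rising from 37.3 to 52.7 FPKM (limma adjusted p = 0.037); it lost this call without any single library (highest adjusted p = 0.12).

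Il7r (chromosome 15, 9505788 to 9530176, minus strand) encodes the IL-7 receptor chain that supports survival of resting T cells. Its vehicle libraries were at 17.6, 7.07 and 9.15 FPKM, and those with 2DG at 3.41, 5.44 and 6.70 FPKM. The groups did not overlap, but the margin was small: vehicle replicate 2 lay at 7.07 FPKM and 2DG replicate 3 at 6.70 FPKM. The ratio of the means was 0.460, from 11.3 ± 5.57 to 5.18 ± 1.66 FPKM (SD, n = 3 each), and the log2 fold change of -0.93 ± 0.33 (SE) did not pass (limma adjusted p = 0.20). The 2 replicate 1 libraries carried the highest and the lowest value. With replicates 2 and 3 alone the difference was -0.36 (limma adjusted p = 0.53), and it was -0.59 without vehicle replicate 1. Relative to S1pr1, Il7r was at 0.823, 0.283 and 0.448 with vehicle and at 0.151, 0.230 and 0.222 with 2DG (exact two-sided permutation p = 0.1, adjusted p = 0.13 over 4 ratios).

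Ly6c1 (chromosome 15, 75044018 to 75048830, minus strand) was the member that passed. Its vehicle libraries were at 14.0, 12.2 and 9.23 FPKM and its 2DG libraries at 1.85, 3.59 and 3.95 FPKM. The lowest vehicle library was above the highest 2DG library by more than the range of either group. The mean dropped from 11.8 ± 2.43 to 3.13 ± 1.12 FPKM (SD, n = 3 each), a ratio of 0.265, and the log2 fold change was -1.66 ± 0.24 (SE, limma adjusted p = 0.018). In bulk RNA, fewer Ly6c1-positive cells and less Ly6c1 RNA per cell cannot be told apart. With 1 library left out the log2 fold change stayed between -1.81 and -1.41. The call was lost without vehicle replicate 1 (limma adjusted p = 0.056), without vehicle replicate 2 (0.071) or without 2DG replicate 2 (0.061), and was kept without each of the other 3 libraries. With replicates 2 and 3 alone the difference was -1.29 and just passed (limma adjusted p = 0.0499). The call was also lost with no filter on low values (0.051) and, with replicate number as a block, at 0.075.

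The value of Ly6c1 is uncertain in one respect, because its neighbour Ly6c2 (chromosome 15, 75108158 to 75111970, minus strand) is a near copy. In the GENCODE M21 transcripts the coding sequences of both genes are 393 bases long without the stop codon and differ at 9 positions (97.7% identity), and the longest identical run is 188 bases. The stretch where they differ most, coding bases 6 to 65 counted from the A of the start codon, is shown on the coding strand with the 6 differing bases in capitals, because reads can be assigned to one gene only where the copies differ.
Ly6c1: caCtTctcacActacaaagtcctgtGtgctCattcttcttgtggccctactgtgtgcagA
Ly6c2: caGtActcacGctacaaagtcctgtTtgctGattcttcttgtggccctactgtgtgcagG
Ly6c2 was listed at 0 in all vehicle libraries and at 0.479, 0.300 and 0.640 FPKM in the 2DG libraries. Summed over both loci, the vehicle mean was 11.8 ± 2.43 FPKM and the 2DG mean 3.60 ± 1.16 FPKM (SD, n = 3 each), a ratio of 0.305, and the groups again did not overlap.

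**Figure D2:**
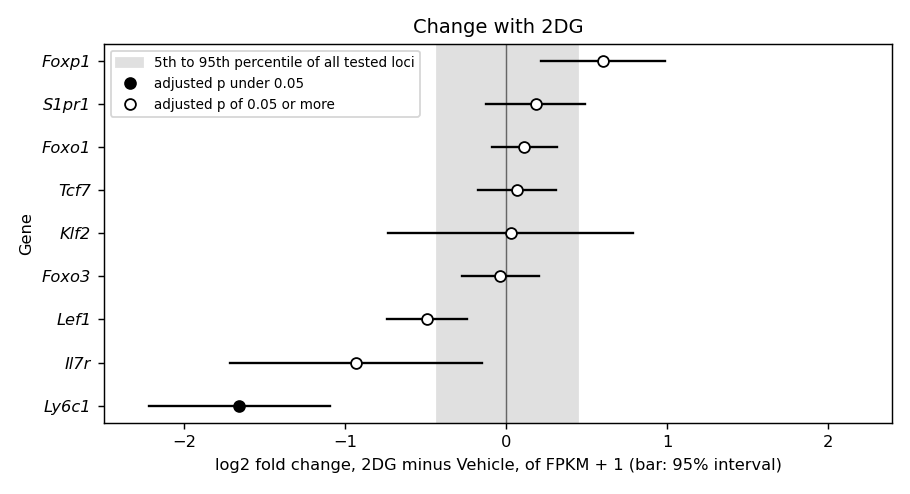
Log2 fold change (2DG minus vehicle, of FPKM + 1) of the 9 genes with its 95% interval; filled points have an adjusted p under 0.05, and the grey band runs from the 5th to the 95th percentile of all loci tested (-0.43 to 0.45). Ly6c1, Il7r, Lef1 and Foxp1 lie outside the band, and the intervals of the other 5 genes span 0.

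**Figure D3:**
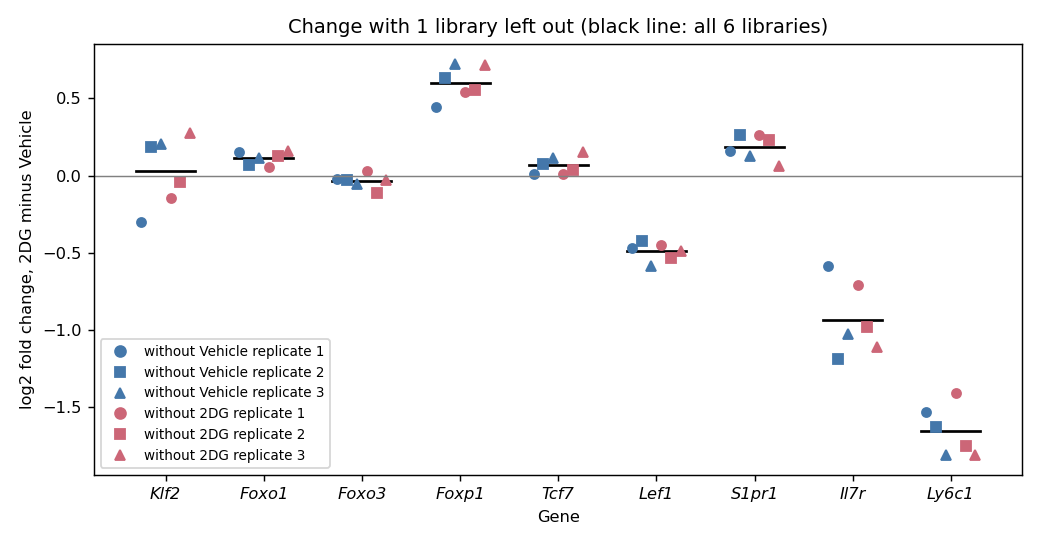
Log2 fold change of the 9 genes with 1 library left out (symbols, by library) and with all 6 (black line). Ly6c1, Lef1, Il7r and Foxp1 kept their direction without each library, Foxo3 changed direction without 2DG replicate 1, and Klf2 without replicate 1 of either group or 2DG replicate 2.

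Across 8 lists of related genes, 12 of 121 tested genes passed, 4 higher and 8 lower with 2DG, where 2.72% of all loci passed. The lists were chosen with earlier results of these data known, so this count is a description and not a test of the lists. Pim1 and Socs1 passed whichever library was left out, and the other 10 lost their call without at least one. Pim1 also passed with equal sums (limma adjusted p = 0.015) and with replicates 2 and 3 alone (0.037), where Socs1 did not (0.12 and 0.098). Of the 12, the number that passed was 6, 3 and 10 when vehicle replicate 1, 2 or 3 was left out. It was 2, 2 and 4 when 2DG replicate 1, 2 or 3 was left out. With replicates 2 and 3 alone 3 passed, with equal sums 4, with no filter on low values 5 and with replicate number as a block 5. Under the block Ccr7, Ets1, Dusp10, Irs2, Cd69, Il2ra and Ly6a did not pass (limma adjusted p between 0.054 and 0.11).

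Among the 28 tested genes of the list of other naive and quiescence genes, 2 rose and 2 fell, and the median log2 fold change was 0.01. Slfn2, a gene whose loss breaks T cell quiescence, rose by 0.72 (limma adjusted p = 0.024; highest 0.10 with 1 library left out), and Dusp10, a phosphatase of JNK and p38, rose by 0.78 (adjusted p = 0.022; highest 0.10). Ets1, a transcription factor of resting T cells, fell from 297 to 202 FPKM (limma adjusted p = 0.018; highest 0.080), and Ccr7, the lymph node homing receptor, fell from 272 to 191 FPKM (adjusted p = 0.049; highest 0.17).

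Of 21 tested genes in the list of other FOXO targets, Bcl6 rose and Irs2 and Ccr7 fell. Bcl6, a transcriptional repressor of follicular helper cells, went from 1.86 to 6.61 FPKM, or by 1.45 on the log2 scale (limma adjusted p = 0.018; highest 0.070 with 1 library left out). Irs2, an adaptor of insulin receptor signalling, went from 5.89 to 2.60 FPKM (limma adjusted p = 0.043; highest 0.14). The cell cycle inhibitor Cdkn1b was at 51.3 and 53.8 FPKM and did not pass (adjusted p = 0.77). None of the 21 tested FOXO family and PI3K-AKT genes passed; the 2 of smallest p were Trib2, at 40.9 and 60.0 FPKM (limma adjusted p = 0.057), and Phlpp1, an AKT phosphatase gene, at 2.95 and 1.79 FPKM (adjusted p = 0.074).

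None of the 14 tested genes in the list of TCF7 and LEF1 cofactors, E proteins and WNT pathway genes passed, with Tcf12 (limma adjusted p = 0.093) and the corepressor gene Tle1 (adjusted p = 0.21) nearest to it, and Ctnnb1, which encodes beta-catenin, stood at 147 and 155 FPKM. The WNT target Axin2 was at 2.75 and 2.43 FPKM. None of the 7 tested genes of the FOXP list passed either. Foxp4 was at 7.12 and 8.28 FPKM (limma adjusted p = 0.38) and Hdac2, a histone deacetylase gene, at 79.9 and 89.8 FPKM (adjusted p = 0.47).

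Of 16 genes in the list for partners and signalling of the IL-7 receptor, 3 fell and 0 rose. The list also holds chains of other cytokine receptors, and IL-7 is not among the cytokines listed as added. Signalling through the IL-7 receptor was not tested. Pim1, a kinase gene induced by STAT5, fell from 152 to 78.3 FPKM (limma adjusted p = 0.0034; highest 0.022 with 1 library left out), and Socs1, a feedback inhibitor of JAK kinases, fell from 124 to 75.0 FPKM (adjusted p = 0.0099; highest 0.0496). Il2ra, which encodes a chain of the IL-2 receptor, fell from 402 to 257 FPKM (limma adjusted p = 0.039, highest 0.14 with 1 library left out). Il2rg, which encodes the chain that pairs with IL-7R, was at 143 and 134 FPKM, and Jak1 was at 54.1 and 53.8 FPKM. The locus of Jak3, which also carries the symbol Insl3, was at 89.0 and 89.2 FPKM. The groups overlapped for each of these loci. Bcl2, a survival gene downstream of IL-7, was at 29.8 and 18.4 FPKM without overlap and did not pass (adjusted p = 0.093).

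In the LY6 list 15 of 16 genes were matched and 4 were tested, of which 2 fell. Ly6a, which encodes Sca-1 and neighbours Ly6c1 on chromosome 15, read 507, 474 and 324 FPKM in the vehicle libraries, against 153, 176 and 238 FPKM in those with 2DG. It fell by 1.20 on the log2 scale (limma adjusted p = 0.039) and lost its call without vehicle replicate 1 or 2 or 2DG replicate 1 or 2 (highest adjusted p = 0.12). Plaur, the urokinase receptor gene of the same protein superfamily, went from 9.70 to 0.387 FPKM, a ratio of 0.0399 (limma adjusted p = 0.016; highest 0.063 with 1 library left out). Its log2 fold change was -2.79 with the pseudocount of 1, -4.14 with 0.1 and -1.37 with 5. Ly6e was at 92.9 and 51.5 FPKM without overlap and did not pass (adjusted p = 0.074), and Ly6k was at 4.97 and 4.32 FPKM with overlap.

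**Figure D4:**
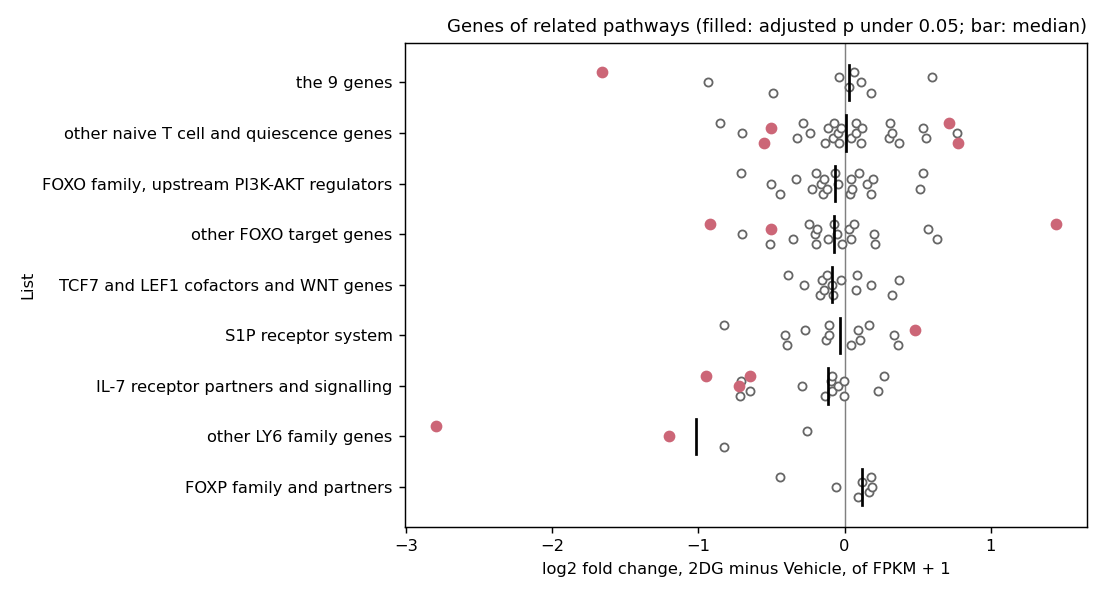
Log2 fold change (2DG minus vehicle, of FPKM + 1) of each tested gene in the 8 related lists and of the 9 genes; filled points have an adjusted p under 0.05 and bars mark medians. List medians lie between -0.11 and 0.12 except that of the LY6 list, at -1.01, which rests on 4 tested genes (Ly6a, Ly6e, Ly6k and Plaur).

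The loci whose values over the 6 libraries followed each member most closely, among 7213 loci of at least 5 FPKM (7214 for Klf2), are given as a description. For Ly6c1 they were Fam46a (Pearson r = 0.999) and Dok2 (r = 0.997), which were both lower with 2DG, and for Foxp1 Tmem176a (r = 0.999) and Ndfip2 (r = 0.998). For Lef1 they were Atp5d (r = 0.998) and Spg7 (r = 0.997), for Il7r Prrg4 (r = 0.988) and Dock10 (r = 0.973), and for Klf2 Usp12 (r = 0.992) and N4bp1 (r = 0.990). These values share the same 6 libraries and group difference, and with so many loci searched a high r is found for any pattern.

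RefSeq promoter windows on GRCm38.p6 (250 bases before to 50 after a start site) were at hand for 8 of the 9 genes, in 15 windows. The FOXO motif GTAAACA and the KLF motif CACACCC, on either strand, were each found in 1 window of Tcf7, beside 3.65% and 7.95% of all 32851 windows. The TCF and LEF motif CTTTGAT was in none of the 15, beside 3.73% of all windows.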

How the data were processed

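RNA-seq of 6 libraries (3 vehicle, 3 2DG) was used as 1 table. The authors deposited 1 FPKM value for each library at each locus, per the file headers. Per the submitters' processing notes, the genome build was mm10 and the tools were Cuffdiff 2.2.1.3, Cuffnorm 2.2.1.1, Cufflinks 2.2.1.0 and TopHat2 2.1.0; the sources used here do not give the annotation, use of strand or scaling. Upper quartiles (10.9 to 11.6 FPKM) were nearly equal and sums (1469420 to 1958740) were not, so the deposited values may have been scaled across libraries. Small RNA genes held 72.1 to 78.2% of the sum in each library. Rescaling to equal sums therefore follows mainly these genes. FPKM are estimates, without counts, and a locus listed at 0 may not have been estimated.

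From these, log2(FPKM + 1) was tested with limma 3.58.1 (R 4.3.3; lmFit, eBayes with trend, group as the only term) on the 10228 loci averaging 1 FPKM or more. P-values are two-sided and Benjamini-Hochberg adjusted over those loci, with a threshold of 0.05. The pseudocount of 1 understates changes of low genes. Folds called a ratio are ratios of mean FPKM. Ratios between genes had an exact permutation test (scipy 1.17.1). On simulated data (2DG against vehicle, 10228 loci, 200 changed, 5 draws, independent noise) the same code recovered 50.4% of 1.5-fold, 91.3% of 2-fold and 98.2% of 4-fold changes, with 4.31% of calls false. The noise was normal with the spread that limma had fitted at each locus, and folds were set on the FPKM + 1 scale. These rates average over loci and do not hold for genes of wide spread such as Klf2 and Il7r. No pair of libraries shared more than 0.479% of values, so none was taken as a copy.

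The 9 genes, the lists and the tests were chosen with earlier results of these data known. Named genes are the 9 members, up to 4 per list past the test (else the 2 of smallest p), the 2 loci of highest r for a member, and others where a result turns on them; Cdkn1b, Ctnnb1, Axin2, Il2rg, Jak1, Jak3, Bcl2, Ly6e and Ly6k were named after their values were seen. Coordinates are from GENCODE M21 (GRCm38, which mm10 denotes). Alternatives were pseudocounts of 0.1 and 5, no filter, a minimum mean of 5 FPKM, quantile normalization, equal sums, equal upper quartiles, no small RNA genes, the replicate block, eBayes without trend or robust, and each library left out. Figures used matplotlib 3.10.9. One gene of the lists is not reported here.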

Additional observations from a re-analysis of the deposited data

How the results depend on the processing

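Of all loci, 156 were higher and 122 lower with 2DG. These counts were 100 and 65 with no filter (loci at 0 in every library left out), 93 and 61 with equal sums, 270 and 246 without small RNA genes, 247 and 199 with robust eBayes, and 57 and 44 with the replicate block; they ran from 52 to 98 higher and from 25 to 69 lower with 1 library left out. With replicates 2 and 3 alone, chosen after seeing the data, they were 43 and 28. For Ly6c1 the log2 fold change was -1.66 with no filter and with the replicate block, where the call was lost, and -1.81 to -1.41 when single libraries were left out; pseudocounts of 5 and 0.1 gave -1.05 and -1.93, and the call was kept. Lef1 stayed at -0.49 where it passed, without small RNA genes and with robust eBayes. Directions turned, without a call, for Klf2 (-0.30, -0.15 and -0.04 without vehicle replicate 1, 2DG replicate 1 and 2DG replicate 2, within a range of -0.30 to 0.27; -0.48 with replicates 2 and 3 alone), for Foxo3 (0.032 without 2DG replicate 1, within a range of -0.11 to 0.032; 0.044 with replicates 2 and 3 alone) and for Tcf7 (-0.043 with replicates 2 and 3 alone). The causes were not tested. Klf2 gave no value at a minimum mean of 5 FPKM. Whether the replicate numbers mark pairs of libraries could not be decided with so few libraries. Deviations from the group means, over tested loci without small RNA genes, correlated at -0.08, 0.45 and -0.24 for numbers 1, 2 and 3. Only number 2 correlated best with its own number. Rn45s, which is left out of these correlations, was listed above 0 only in the libraries of number 1. The replicate block changed the call of no member but Ly6c1, and 5 of the 12 called list genes passed under it. Depth is unknown, so no limit for low genes can be given.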
